A study of Mus musculus with 6 samples.

Results

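Transcripts of cytosolic ribosomal proteins were compared in the vastus lateralis, a thigh muscle, between 3 wild type mice (samples V906, V872 and V923) and 3 transgenic mice that over-express FRG1, a gene named for its place in the region of facioscapulohumeral muscular dystrophy (samples V873, V874 and V871). All 6 mice were C57Bl/6J females aged 4 weeks, and RNA of each sample was hybridised to 1 Illumina bead array. The sources used here do not give the promoter or founder line of the FRG1 transgene, nor whether samples of a group were littermates. The p-values therefore cover the spread among these 6 samples alone, which may be partly technical. Members were the genes whose platform symbol starts with Rpl or Rps followed by a digit, with Rplp0, Rplp1, Rplp2 and Rpsa, and without the S6 kinases, Rpl7l1, Rps19bp1 and pseudogenes. The rule found 56 genes with 81 probes among 17711 genes on the array. Probes entered the test if 3 or more of the 6 arrays gave a detection p below 0.05, and 68 probes of 51 genes were retained, of 19563 probes and 10287 genes in all. No retained probe stood for Rpl17, Rplp2, Rpsa, Rpl39l or Rps23rg1, the last a retroposed copy of Rps23. Rpl3, Rps6, Rps27a, Rps4x, Rps4l, Rpl10l and Rplp1 had no probe named for them in the platform annotation and were not analysed here.

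Each ribosome has a small subunit, which reads the messenger RNA and is built from Rps proteins, and a large subunit, which forms the peptide bonds and is built from Rpl proteins. Messenger RNAs of these proteins typically begin with a tract of pyrimidines, the TOP motif, through which mTOR signalling adjusts their translation together. Some members have a paralogue: Rpl3l replaces Rpl3 in skeletal muscle and heart, Rpl22l1 is a close relative of Rpl22 whose level is raised in mice that lack Rpl22, and Rps27l is a relative of Rps27 induced by p53. Free Rpl5 and Rpl11, which join the 5S ribosomal RNA before they enter the large subunit, bind the p53 ligase Mdm2 when ribosome assembly fails.

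Sequence upstream of the RefSeq start is shown for the 2 paralogues that passed the threshold and for Rpl22, the partner of one of them. It is also shown for muscle-restricted Rpl3l and for Rpl11. Rpl22, Rpl3l and Rpl11 did not pass. Each run is the 100 bases before the start, 5′ to 3′ on the sense strand, from RefSeq on GRCm38.p6. Capitals mark CTTTCC, a pyrimidine tract on the sense strand, or TATAAA, the TATA box on the sense strand. The bases printed lie before the RefSeq start, so CTTTCC in capitals is not the TOP motif. Where RefSeq lists several starts, the most upstream one was taken. Rps19, which passed, and Rpl5, which did not, are not shown, and the 100 bases before their starts hold neither CTTTCC nor TATAAA.
Rps27l, chr9:66945986-66946085, plus strand: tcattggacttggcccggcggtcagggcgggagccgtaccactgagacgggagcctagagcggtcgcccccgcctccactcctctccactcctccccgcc
Rpl22l1, chr3:28805408-28805507, plus strand: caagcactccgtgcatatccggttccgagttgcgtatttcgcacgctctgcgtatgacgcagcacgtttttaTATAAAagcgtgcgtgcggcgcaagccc
Rpl22, chr4:152324336-152324435, plus strand: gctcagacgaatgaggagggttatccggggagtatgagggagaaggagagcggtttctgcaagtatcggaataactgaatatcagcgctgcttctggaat
Rpl3l, chr17:24727726-24727825, plus strand: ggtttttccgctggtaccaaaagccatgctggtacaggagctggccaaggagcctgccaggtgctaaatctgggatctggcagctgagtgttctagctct
Rpl11, chr4:136053394-136053493, minus strand: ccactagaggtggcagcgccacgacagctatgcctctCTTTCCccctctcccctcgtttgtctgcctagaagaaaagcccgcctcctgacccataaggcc

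Of the 56 members, 45 had a start in the RefSeq promoter table, which holds 27025 genes, and windows of 250 bases before to 50 after the start were searched. The pyrimidine tract CTTTCC lay anywhere in the window on the sense strand in 17 members (37.8%), against 14.1% of all genes. This is not a count of TOP motifs, with which the messenger RNA itself begins. CCGGAAG, a site of the ETS type searched on both strands, lay in 15 members (33.3%), against 9.14% of all genes. TATAAA lay on the sense strand in 5 members (11.1%), against 8.88% of all genes. None of the letters searched lay in the windows of Rpl22 and Rpl3l. The window of Rpl22l1 held the TATA box and neither of the other letters, that of Rps27l held the ETS type letters beyond the bases printed, and that of Rpl11 held both the tract and the ETS type letters. A match describes these letters in these windows and is not a measured binding site.

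Summed signal ranged from 10537335 to 13062182 intensity units per array, and between 17957 and 20000 probes were detected. The first principal component, with 56.9% of the variance, separated the groups, and the second, with 19.2%, set wild type sample V923 (score 27.82) apart from wild type samples V906 (-21.17) and V872 (-14.94). All 9 skeletal muscle markers were retained and 2 fell (Actn3 and Myh4, the latter a call lost under 7 of 16 alternatives), with summed signals of 179453 to 193919 in wild type and 155162 to 177976 in transgenic muscle. Of 12 measured macrophage markers 11 passed as higher (10 with detection required on all 6 arrays, and 6 without transgenic sample V873), and their summed signal was 2461 to 3426 in wild type and 5930 to 7887 in transgenic muscle. Cd68 and Csf1r, also macrophage markers, had no retained probe. The 6 measured markers of regenerating or immature muscle passed as higher, with summed signals of 851 to 1184 against 6330 to 8330, while Myh3, Myod1 and Pax7 had no retained probe. Of these 6, Myog was detected on 0 of 3 wild type arrays and Chrng on 1 of 3, so both entered the test through the transgenic arrays, and with detection required on all 6 arrays the count was 4. Of 10 endothelial markers 3 fell (5389 to 7362 against 4938 to 5993), namely Cldn5, Eng and Cdh5, whose calls were lost under 6, 7 and 7 of 16 alternatives. Without transgenic sample V871 0 of them fell, and 1 did without V873 or without any 1 of the wild type samples. Of all genes tested 14.8% were called, 7.53% higher and 7.23% lower, and no test set the marker counts against these shares. The part of these cell types in the ribosomal protein values was not tested. In whole muscle, fewer cells of a type and less RNA per cell cannot be told apart.

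Most ribosomal protein genes did not pass the test. Of the 51 measured genes, 3 rose (Rps27l, Rpl29 and Rps19), 1 fell (Rpl22l1) and 47 did not pass in limma with Benjamini-Hochberg adjustment over all retained probes at a threshold of 0.05. Rps19 entered the test only through the transgenic arrays, where it is higher, and with detection required on all 6 arrays 2 members rose. The 4 calls are 7.84% of members, where 14.8% of all genes were called, 7.53% higher and 7.23% lower, and no test set these shares against each other. The same 4 genes accounted for the called probes, 3 higher and 1 lower of 68, where 13.8% of all probes were called (7.1% higher and 6.71% lower). Changes were small: 43 of 51 members (84.3%) had a log2 fold change within 0.3 of 0, against 66.8% of all genes tested. Log2 fold changes of members ran from -0.59 to 0.70. For comparison, 2 of the 4 measured paralogues passed and 2 of the 47 other members did.

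**Figure D1:**
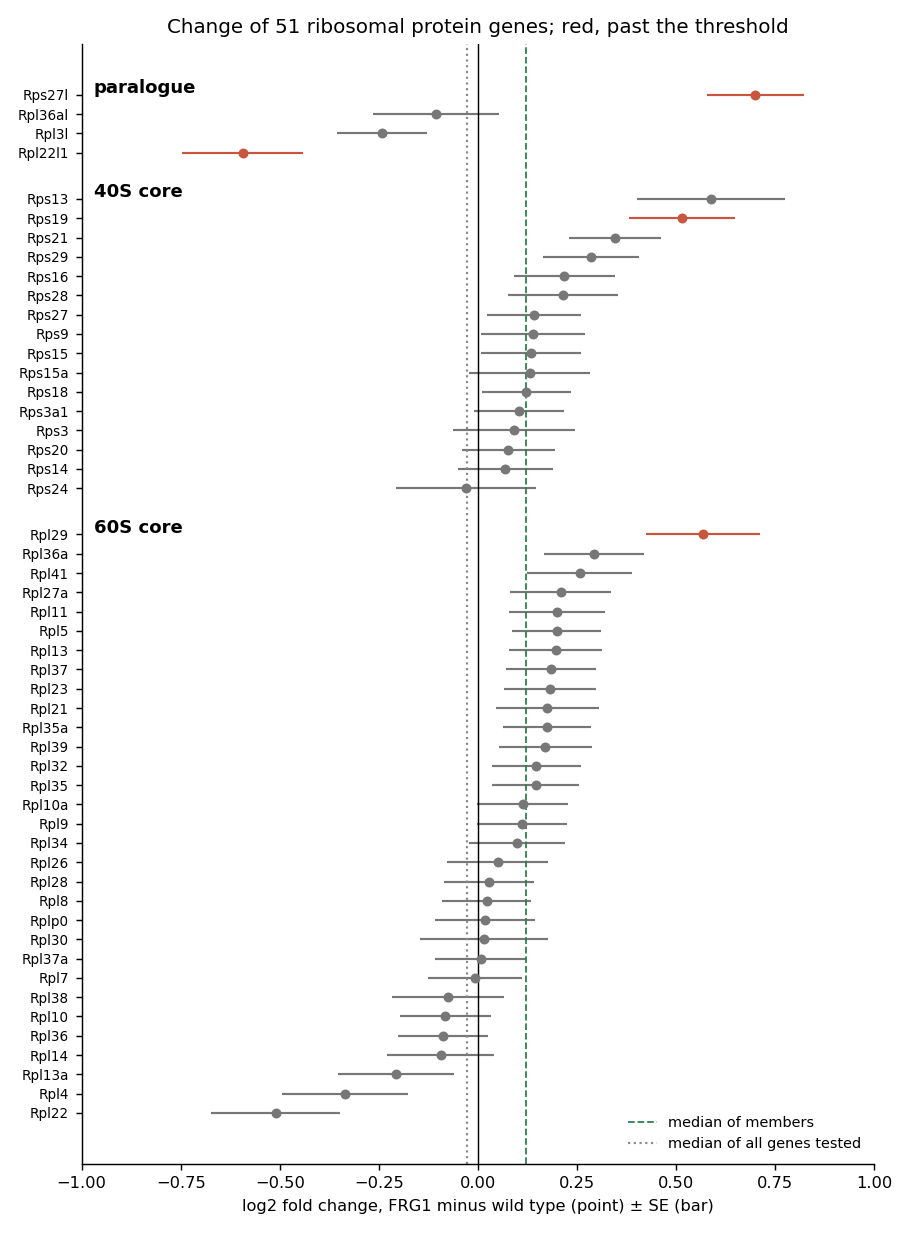
Log2 fold change of each of the 51 measured ribosomal protein genes (FRG1 minus wild type; bars are the SE from limma), grouped into small subunit, large subunit and paralogues. The 4 genes past the threshold are red, the dashed line is the member median of 0.12 (green), and the dotted line is the median of all genes tested, -0.03.

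Rps27l, the p53-inducible paralogue of the small subunit protein Rps27 (probe ILMN_2624280), had log2 intensities of 12.40, 12.47 and 12.55 in wild type samples V906, V872 and V923. In transgenic samples V873, V874 and V871 they were 13.28, 13.03 and 13.21. All 3 transgenic values lay above all 3 wild type values. Rps27l rose 1.62-fold, from 12.47 ± 0.08 to 13.17 ± 0.13 (SD, n = 3 each), a log2 fold change of 0.70 ± 0.12 (SE; limma adjusted p = 0.0051). It passed under 16 of 16 alternatives, with log2 fold changes of 0.65 to 0.77.

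Rpl29, a small basic protein of the large subunit without which mice survive but grow poorly (ILMN_2730005), had log2 intensities of 9.28, 9.13 and 9.07 in wild type samples V906, V872 and V923 and of 9.60, 9.99 and 9.60 in transgenic samples V873, V874 and V871. The groups did not overlap, and sample V874 was the highest. Rpl29 rose 1.48-fold, with a log2 fold change of 0.57 ± 0.14 (SE; limma adjusted p = 0.0275). The call was lost without any of the 3 transgenic samples or wild type sample V872, and under 6 of 16 alternatives in all.

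Rpl22l1 was the member that fell (ILMN_2678755), with log2 intensities of 7.72, 7.57 and 7.57 in wild type samples V906, V872 and V923 and of 7.20, 6.71 and 7.18 in transgenic samples V873, V874 and V871. Every transgenic value lay below every wild type value, and sample V874 was the lowest. The wild type level was 1.51-fold higher, a log2 fold change of -0.59 ± 0.15 (SE; limma adjusted p = 0.0299). The call was lost under 8 of 16 alternatives, among them median scaling (-0.44, adjusted p = 0.125) and leaving out any sample other than wild type sample V923.

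Rps19, a small subunit protein whose gene is mutated in people with Diamond-Blackfan anaemia (ILMN_2754355), lay at the edge of detection. The probe had a detection p below 0.05 on 0 of 3 wild type arrays and on all 3 transgenic arrays, so it entered the test only through the group in which it is higher, and its p-value is no independent support for a rise. Its raw signals were 51.1, 42.2 and 42.5 intensity units in wild type samples V906, V872 and V923 and 59.5, 70.3 and 59.2 in transgenic samples V873, V874 and V871. The groups did not overlap. Set against the lowest detected value on each wild type array, the transgenic mean of Rps19 was 1.2-fold higher in the main fit. The limma adjusted p was 0.0304, and the call was lost under 7 of the 15 alternatives that measured Rps19. Over these alternatives its log2 fold change ran from 0.23 to 0.59, so the 1.2-fold value holds for the main settings only. A second Rps19 probe was detected on none of the arrays. Probes of Rpsa and Rplp2 were detected on 0 arrays, and their lowest detection p-values on any array were 0.0624 and 0.0636.

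**Figure D2:**
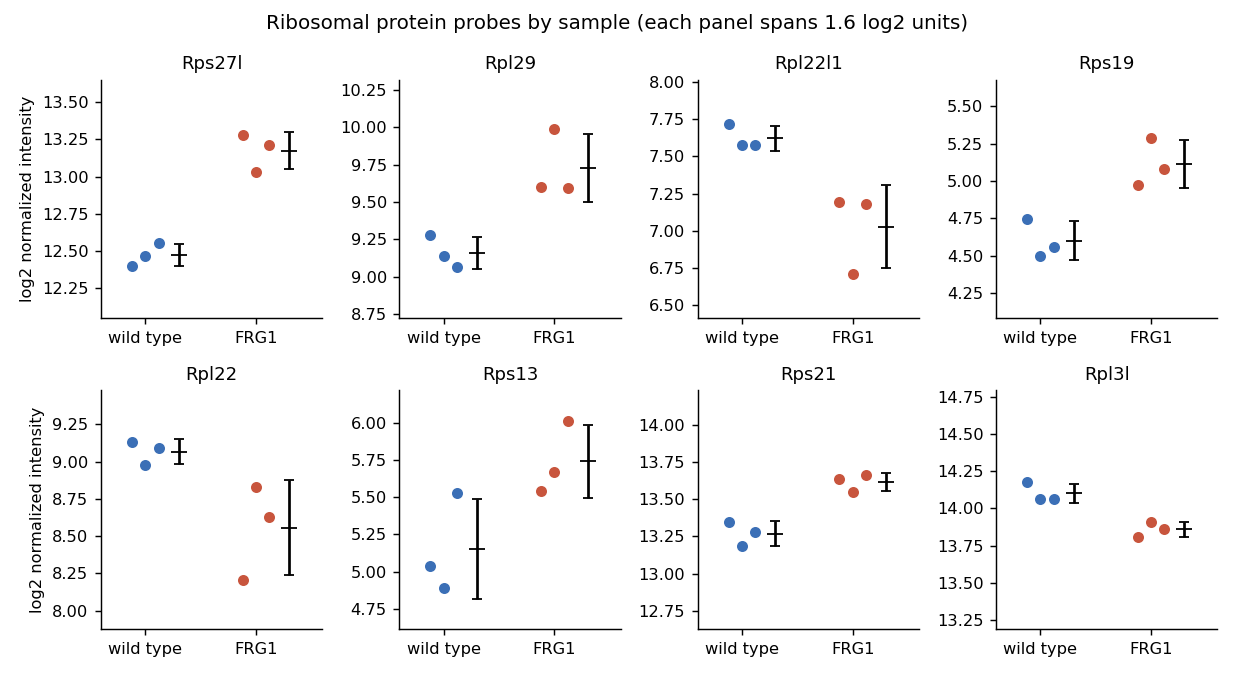
Log2 normalized intensity of 8 ribosomal protein probes in each sample (points; wild type blue in the order V906, V872, V923 and transgenic red in the order V873, V874, V871), with the mean and SD of 3 samples (bars). Every panel spans the same range of 1.6 log2 units. The groups do not overlap in any of these 8 chosen panels, where 39.2% of all members and 36.6% of all genes did not overlap. Only Rps27l, Rpl29, Rpl22l1 and Rps19 passed the threshold, and Rps19 was detected on 0 of 3 wild type arrays.

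Just short of the threshold were Rps13, Rpl22 and Rps21. Rpl22, a large subunit protein with roles in lymphocyte development (ILMN_2659229), had log2 intensities of 9.13, 8.97 and 9.09 in wild type samples V906, V872 and V923 and of 8.21, 8.83 and 8.63 in transgenic samples V873, V874 and V871. All transgenic values were lower, and sample V873 was the lowest, whereas for Rpl22l1 it was sample V874. The log2 fold change of Rpl22 was -0.51 ± 0.16 (SE; limma adjusted p = 0.0668), and it passed under 4 of 16 alternatives. Rps21, a small protein of the small subunit (ILMN_1240898), had log2 intensities of 13.35, 13.18 and 13.28 in wild type and 13.64, 13.55 and 13.66 in transgenic muscle in the same sample order. The groups stood apart by more than their own spread, yet the log2 fold change of 0.35 ± 0.12 (SE) did not pass (limma adjusted p = 0.0775), though it did under 6 of 16 alternatives. Rps13, a small subunit protein whose probe is dim (ILMN_2482591), had 5.04, 4.89 and 5.53 in wild type and 5.54, 5.67 and 6.01 in transgenic muscle. Wild type sample V923 all but met the lowest transgenic sample, and the log2 fold change was 0.59 ± 0.19 (SE; limma adjusted p = 0.0662). Without sample V923 it was 0.78 and passed (adjusted p = 0.00884), as it did under 4 of 16 alternatives in all. Rpl4, a large subunit protein that lines the exit tunnel, had a log2 fold change of -0.34 ± 0.16 (SE; adjusted p = 0.201), and its groups overlapped.

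The paralogues differed among themselves. Rpl3l, the muscle form of the protein Rpl3 (ILMN_2649810), had log2 intensities of 14.18, 14.06 and 14.06 in wild type samples V906, V872 and V923 and of 13.81, 13.91 and 13.86 in transgenic samples V873, V874 and V871. The groups did not overlap, and the log2 fold change of -0.24 ± 0.11 (SE) did not pass in limma (adjusted p = 0.195; 0.0572 to 0.416 over 16 alternatives). Rpl36al, a near copy of Rpl36a, had a log2 fold change of -0.11 ± 0.16 (SE; adjusted p = 0.712), and its direction turned with median scaling (0.071) and without transgenic sample V874 (0.063). Its partner Rpl36a was at 0.29 ± 0.13 (SE; adjusted p = 0.163), and Rps27, the partner of Rps27l, was at 0.14 ± 0.12 (adjusted p = 0.481).

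In 3 paralogue pairs both members were measured, and the difference between their changes was tested on the within-array difference of log2 values. Rps27l minus Rps27 was -0.81, -0.77 and -0.79 in wild type samples V906, V872 and V923 and -0.17, -0.45 and -0.08 in transgenic samples V873, V874 and V871. The groups did not overlap, and the paralogue changed by 0.56 log2 units more than its partner (two-sided exact permutation p = 0.1, the smallest that 3 against 3 allows; 0.15 adjusted over 3 pairs). Rpl36al changed by -0.40 relative to Rpl36a, again without overlap (exact permutation p = 0.1, adjusted 0.15). The Rpl36al probe is dim, with a wild type mean of 6.06 against 12.06 for Rpl36a, and the offset understates changes of dim probes. The direction of Rpl36al itself turned under 2 of 16 alternatives. Rpl22l1 and Rpl22 differed by -0.08 in their changes, and the groups overlapped (exact permutation p = 0.8, adjusted 0.8). With 3 samples in each group this permutation test cannot give a p below 0.1.

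Among the 31 measured members of the large subunit outside the paralogues, 1 rose, 0 fell and 30 did not pass. The call is 3.23% of them, where 14.8% of all genes were called. Their median log2 fold change was 0.11, with a range from -0.51 (Rpl22) to 0.57 (Rpl29). Rpl5 (ILMN_1239211), partner of the 5S ribosomal RNA, had log2 intensities of 12.70, 12.76 and 12.65 in wild type samples V906, V872 and V923 and 12.89, 12.87 and 12.94 in transgenic samples V873, V874 and V871. Rpl11 (ILMN_2665229), which joins it there, had 12.66, 12.89 and 12.86 against 12.93, 13.09 and 12.99. For both of these probes the transgenic values all lay above the wild type values, as in 16.9% of all genes. Neither passed (log2 fold changes 0.20 ± 0.11 and 0.20 ± 0.12, SE, limma adjusted p = 0.281 and 0.322). A second retained Rpl5 probe (ILMN_1218708) was at 0.11 ± 0.12 (SE, limma adjusted p = 0.584), and its groups overlapped. Rpl23, which also binds Mdm2, was at 0.18 ± 0.12 (adjusted p = 0.344). Rplp0, the base of the stalk that recruits elongation factors, was at 0.02 ± 0.13 (adjusted p = 0.946), and its sign turned under 4 of 16 alternatives. Rpl39, at the mouth of the exit tunnel, was at 0.17 ± 0.12 (adjusted p = 0.382), and Rpl10, which completes the large subunit late in assembly, at -0.08 ± 0.12 (adjusted p = 0.691).

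Among the 16 measured members of the small subunit outside the paralogues, 1 rose (Rps19), 0 fell and 15 did not pass, with a median of 0.14. The call is 6.25% of them, where 14.8% of all genes were called. Rps19 was detected on 0 of 3 wild type arrays, so it entered the test only through the transgenic arrays, where it is higher. Of these 16 genes, 15 (93.8%) had a positive log2 fold change, against 45.9% of all genes tested. The exception was Rps24 at -0.03 ± 0.18 (SE). Rps29, whose probe gave log2 intensities of 14.10, 14.13 and 14.14 in wild type samples V906, V872 and V923 and of 14.53, 14.44 and 14.26 in transgenic samples V873, V874 and V871, was at 0.29 ± 0.12 (limma adjusted p = 0.152). Its groups did not overlap.

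Across members the small differences leaned one way. The log2 fold change was positive in 39 of 51 members (76.5%), against 45.9% of all genes tested, and the median was 0.12 against -0.03. Between 36 and 41 members were positive in the 15 alternatives that measured 50 or 51 of them, and 40 of 56 were with no detection filter. Median scaling moved the median log2 fold change of all retained probes by 0.12, and the member median then exceeded that of all genes by 0.02 in place of 0.15. Among brighter probes, those with a mean log2 intensity above 10, the lean held its size better: 33 of 37 members were positive, with a median of 0.14 against -0.01 for all such genes, and with median scaling 27 of 37 were positive and the medians differed by 0.10. The groups did not overlap in 20 members (39.2%), 17 higher and 3 lower, where 36.6% of all genes did not overlap, 16.9% higher and 19.8% lower.

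Array by array, the median deviation of the 51 members from their own 6-array mean was -0.09, -0.07 and 0.005 in wild type samples V906, V872 and V923 and 0.09, 0.07 and 0.04 in transgenic samples V873, V874 and V871. All transgenic medians lay above all wild type medians, and sample V923 lay nearest to them. Of the 51 members, 9, 17 and 26 lay above their mean in the wild type samples and 38, 36 and 30 in the transgenic samples, in the same order. Sample V923 was also the highest of the 6 in the median over all genes (0.06). Without it the member median log2 fold change was 0.16, and 4 members rose and 1 fell. Members with a mean log2 intensity above 10 had a median SD within groups of 0.08, against 0.12 for all genes above that cut. Beyond this lower cut the sets were not matched for brightness.

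**Figure D3:**
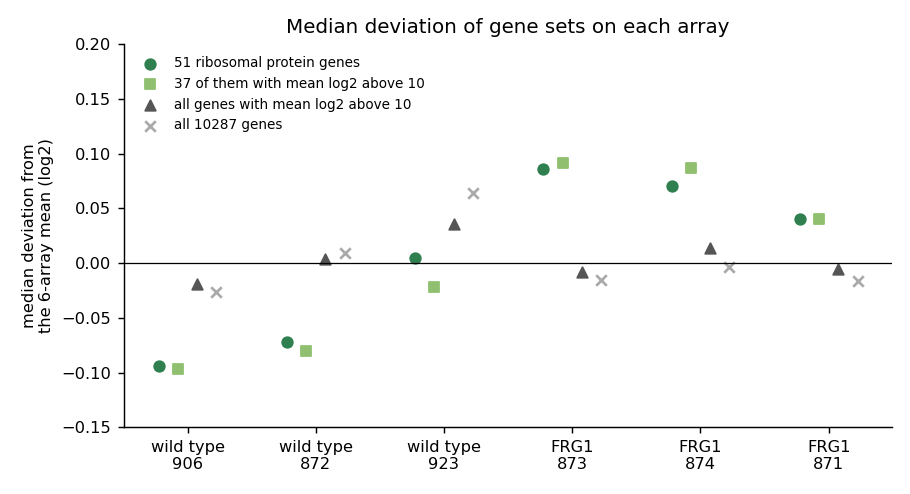
Median deviation, in log2 units, of 4 gene sets from their own mean over the 6 arrays, by sample. Ribosomal protein genes (green) lie at 0.04 to 0.09 in the transgenic samples and at -0.09 to 0.005 in the wild type samples, while all genes (grey) are highest in wild type sample V923.

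Of the 12 members with several retained probes, 6 had probes of the same sign throughout and 6 did not, and none of their probes passed. Rps9, a small subunit protein that contributes to decoding accuracy, had 5 retained probes with log2 fold changes from -0.03 to 0.25. The probes of Rps24, a small subunit protein with tissue-specific isoforms, lay between -0.15 and -0.03, and those of Rpl21 between 0.09 and 0.20. The 2 retained probes of Rpl23 were at 0.18 and -0.09. Ribosomal protein genes have many processed pseudogenes and near-identical copies, so a probe may also report their transcripts, and the probe sequences were not analysed here.

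Genes that work with the ribosome were counted in the same way, where 14.8% of all genes were called. Of 44 measured ribosome biogenesis factors 1 rose and 0 fell (2.27%, median 0.07). This was Imp4, a part of the small subunit processome, at 0.51 ± 0.12 (SE, limma adjusted p = 0.0184, lost under 1 of 16 alternatives). Of 31 initiation and elongation factors 1 rose and 3 fell (12.9%, near the share of all genes; median 0.10). Eif4a1, the helicase of the cap-binding complex, rose by 0.63 ± 0.12 (adjusted p = 0.00894). The cap-binding protein Eif4e fell by 0.49 on the log2 scale, the initiation factor homologue Eif4g2 by 0.57 and the start-site factor Eif1ax by 0.58 (adjusted p = 0.0279, 0.0204 and 0.0441), calls lost under 5, 5 and 8 of 16 alternatives. Of 14 other messenger RNAs with a TOP motif 1 rose and 1 fell (14.3%, also near the share of all genes, with a median of 0.07). Eef1a1, the elongation factor that delivers transfer RNA, was at 0.48 ± 0.12 (adjusted p = 0.0291, lost under 7 of 16 alternatives). Eif4b, a cofactor of Eif4a1, was at -0.57 ± 0.13 (adjusted p = 0.0177, lost under 3 of 16 alternatives). Fau, which carries the small subunit protein S30 fused to a ubiquitin-like protein and lies outside the symbol rule, was at 0.12 ± 0.12 (adjusted p = 0.573).

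Of 24 listed genes of mTOR and S6 kinase signalling 16 were measured. Among these 16, 2 rose and 1 fell (18.8%, where 14.8% of all genes were called, with a median of -0.03). The S6 kinase gene Rps6kb1, Rheb, Akt1 and Myc were among the listed genes with no retained probe. Rps6ka3, a kinase that phosphorylates ribosomal protein S6 among other targets, rose by 0.79 ± 0.12 (limma adjusted p = 0.00253), and Pdpk1, which activates it, by 0.95 ± 0.21 (adjusted p = 0.0173, lost under 5 of 16 alternatives). Tsc1, an inhibitor of mTOR, was at -0.58 ± 0.11 (adjusted p = 0.00804, lost under 2 of 16 alternatives), and its change shrank to -0.05 with its probes averaged. In the list of p53 checkpoint genes 4 of 7 measured genes rose and 0 fell (median 0.86): Cdkn1a (2.89 ± 0.37), Eda2r (2.76 ± 0.13), Phlda3 (1.21 ± 0.13) and Mdm2 (0.86 ± 0.12; SE, adjusted p at or below 0.00162). With the probes of a gene averaged, Mdm2 was at 0.52 and Eda2r at 1.85, and both still passed. Trp53, the gene of p53 itself, and Bax were also listed and had no retained probe. Of 70 measured mitochondrial ribosomal protein genes 4 rose and 1 fell (7.14%, with a median of 0.02), led by Mrps34 at 0.54 ± 0.12 and Mrps26 at -0.54 ± 0.12 (adjusted p = 0.0142 and 0.0184). Mrpl46 and Mrpl43 rose by 0.52 and 0.53 (adjusted p = 0.0188 and 0.0226). The calls of Mrps34, Mrps26, Mrpl46 and Mrpl43 were lost under 2, 3, 4 and 3 of 16 alternatives. These lists share the 6 arrays with the ribosomal proteins, and no test set one list against another.

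**Figure D4:**
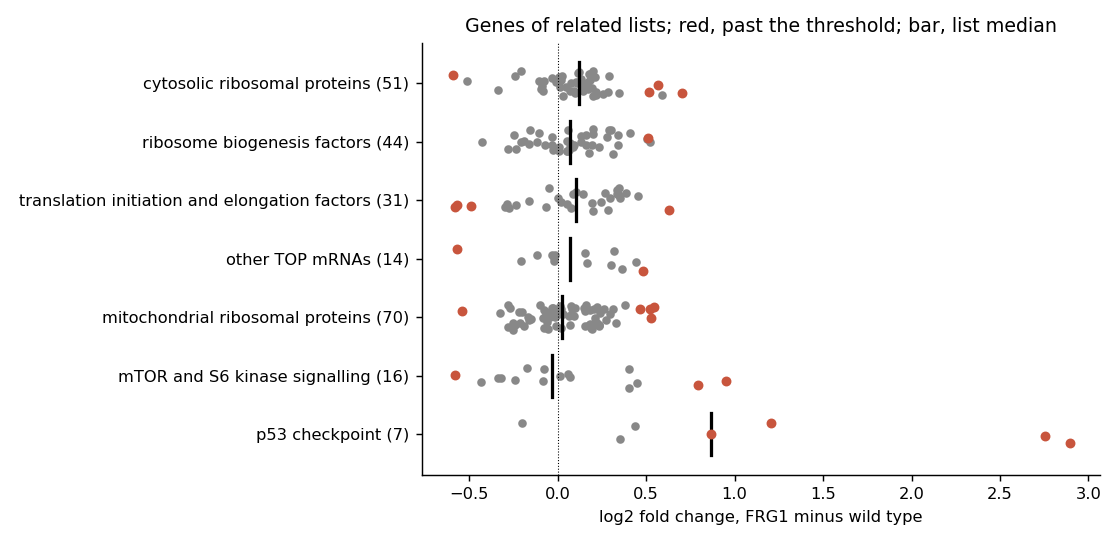
Log2 fold change (FRG1 minus wild type) of each measured gene of 7 lists, with the number of genes in brackets, the list median as a black bar and genes past the threshold in red. Cytosolic ribosomal proteins have a median of 0.12 and lie between -0.59 and 0.70, while 4 of the 7 p53 checkpoint genes lie above 0.8.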

How the data were processed

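The authors deposited signal intensities and detection p-values for 46632 probes on 6 arrays, not normalized per the file headers. A second deposited table holds processed intensities, made with lumi per the submitters' processing notes; the sources used here do not give its settings, its column medians lie between 5.07 and 5.15 with 33.7% to 33.9% of values below 0, and it served as an alternative. Signals were background corrected and quantile normalized with neqc (limma 3.58.1, R 4.3.3; negative controls inferred from detection p, offset 16) and taken to log2. The offset understates changes of dim probes. Retained probes were fitted with lmFit and eBayes, group as the only term. Symbols came from the platform annotation; 29921 probes matched a gene of RefSeq (GRCm38.p6), 29976 had 1 symbol, 10 several and 16646 none. The probe with the highest mean stood for a gene. Exact permutation tests used scipy 1.17.1. Members, lists and the rule for naming genes were chosen with earlier results of these data known. Named were all members past the threshold, the 4 largest changes short of it, paralogue pairs, stalk, Rpl5 and Rpl11, and up to 4 called genes of each related list; other members were named after their values were seen. The promoter motifs were chosen during the analysis. The fit was tested on simulated data. The number of arrays limits precision. Marker lists of lymphocytes (1 of 2 measured rose), erythroid cells (0 of 4 passed) and fibroblasts (1 rose and 1 fell of 8) and muscle (2 of 9 fell) were also counted.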

Additional observations from a re-analysis of the deposited data

How the results depend on the processing

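Of 16 alternatives, the count of member genes that rose (3) became 5 with array weights and 5 with trend and robust eBayes, 4 with cyclic loess, median scaling or no background correction, and 2 with detection on all 6 arrays, no detection filter or the authors' processed table, and that of genes that fell (1) became 2 with array weights, trend and robust eBayes or no background correction, and 0 with median scaling, no detection filter or the authors' processed table. Counts of member probes moved to the same numbers in the same settings. With 1 sample left out, 1 to 4 member genes or probes rose and 0 to 1 fell, and 1330 to 2696 of all probes passed in place of 2702 (1330 without transgenic sample V873, 1334 without V871). Without transgenic sample V874 1 member fell, but this was a gene other than Rpl22l1, whose call was lost there. The member median of 0.12 ranged from 0.11 to 0.16 with 1 sample left out. Rplp0 turned to -0.032 with array weights, -0.0135 without transgenic sample V873, -0.0063 without V874 and -0.044 without wild type sample V923, and with 1 sample left out it lay between -0.044 and 0.091. Rpl36al turned to 0.071 with median scaling and to 0.063 without transgenic sample V874, and with 1 sample left out it lay between -0.195 and 0.063. Calls over all probes were 51.4% higher, against 73.8% with median scaling. The cause of these moves was not tested, beyond the fewer samples or the other set of probes that a setting itself brings. No paired analysis was possible because the groups share no sample numbers. No slide or chip position is named in the file headers, so that alternative was not run. Dim probes such as that of Rps19 are limited by their signal over background.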
